A study of Mus musculus with 12 samples.

Results

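The 4 tumours that arose on the C57BL/6J background are described here, chosen by the strain background given in their labels. They are B86, B91, B96 and B76, each on 1 array, so 4 of the 12 arrays and 4 of the 11 tumours of the series. The other 7 tumours, on 8 arrays, arose in mice of mixed C57BL/6J x SJL/J background. On every array, genomic DNA of cells grown from a malignant peripheral nerve sheath tumour (MPNST) was labelled with Cy5. It was compared with Cy3-labelled DNA of non-neoplastic Schwann cells on mouse oligonucleotide arrays for comparative genomic hybridisation. Design and labels pose the question of which parts of the genome differ in copy number between these tumour cells and Schwann cells.

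All 4 tumours carried the P0-GGFβ3 transgene, through which Schwann cells overexpress GGFβ3, an isoform of neuregulin-1. The reference cells were wild type, and their strain is given as C57BL/6J. Tumour explants were started in medium with serum, forskolin and NRG1β and then grown without the last 2 agents, while Schwann cells were kept in both throughout. Titles give passage 6 for B86, 9 for B91, 8 for B96 and 13 for B76, although the growth protocol allows no more than 8. Each tumour is a single culture on a single array, so a p-value covers only the spread between these 4 arrays. Tumour DNA always carried Cy5, and dye and tumour cannot be told apart.

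MPNST is a malignancy of the Schwann cell lineage. It is known for loss of the Ras regulator neurofibromin, of the cell cycle inhibitors encoded by Cdkn2a and of subunits of the Polycomb complex. A copy number array reports the ratio of tumour to reference DNA at each probe, so a ratio can move because either channel moved. For that reason each ratio that repeated in all 4 tumours is given here with both channels.

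Each array held 42404 probes, of which 40726 lay on autosomes at a median spacing of 21.5 kb. Of the autosomal genes, 45.3% had only 1 probe, among them Trp53, Suz12, Birc5, Sox9, Rras, Mapk3 and Cadm4. The share of spots well above background in both channels was lowest in B86, at 99.9%, and no spot was saturated. Noise between neighbouring probes had an SD of 0.245 log2 in B86, which was read on slide 1 with another scanner, and of 0.183 to 0.195 in the other tumours. Precision is limited by having only 4 arrays. Ratios are log2 of tumour over reference, centred on the autosomal median of each array, and positions are those printed in the files (mm9). Exon and intron positions are not given, since no annotation of that build was used.

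The probes on which the main results turn are shown here in full, as the files list them. They mark the deleted tumour suppressor and its edge, the amplified oncogene, and 2 short stretches whose channels behaved differently. The strand of the letters is not given in the files.
Cdkn2a, chr4:88934358-88934417: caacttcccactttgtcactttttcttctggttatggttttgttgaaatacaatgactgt
Cdkn2a, chr4:88938065-88938124: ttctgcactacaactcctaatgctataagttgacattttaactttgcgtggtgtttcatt
AK148321, chr4:89039387-89039446: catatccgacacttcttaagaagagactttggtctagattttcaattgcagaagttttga
Myc, chr15:61818043-61818102: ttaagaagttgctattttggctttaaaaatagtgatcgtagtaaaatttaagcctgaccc
Fam177a2, chr12:56231580-56231639: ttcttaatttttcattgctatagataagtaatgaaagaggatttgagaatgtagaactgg
Itln1, chr1:173459315-173459374: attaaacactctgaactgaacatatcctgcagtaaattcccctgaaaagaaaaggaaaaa

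Cdkn2a, from which p16INK4a and p19ARF are made, restrains the cell cycle. Its ratio was -5.19 in B86, -3.35 in B91, -3.31 in B96 and -0.09 in B76. So 3 tumours lay far below the reference and B76 lay near 0. Cdkn2a fell by 2.98 ± 2.12 on the log2 scale (SD, n = 4; adjusted p 0.0363 in limma), and the call ended when B86 (adjusted p 0.111), B91 (0.114) or B96 (0.106) was left out. The reference channel at the gene was 0.12, and the tumour channel was -5.13, -3.27, -3.24 and -0.05. The reference level was thus near the array's centre while 3 tumour signals were far below it.

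The deletions of the 3 tumours shared 7 probes over 217 kb (chr4:88727113-88944027). Their mean there was -3.63 in B86, -3.40 in B91 and -3.49 in B96, and -0.25 in B76. At 1 of the 7 probes (chr4:88829228-88829287) the tumour signal of B96 was not well above background, so the B96 ratio of -3.97 there has only a bound and the B96 mean includes it. The shared stretch held Mtap, which encodes a methionine salvage enzyme, with -2.79, -3.48, -3.48 and -0.31. Mtap fell by 2.52 ± 1.51 (SD, n = 4, limma adjusted p 0.0228), a call that ended without B86 (adjusted p 0.0931), B91 (0.0819) or B96 (0.0764). Cdkn2b, the neighbouring inhibitor gene, was not among the genes measured here.

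The edges of the deletions differed between tumours. At the last AK148321 probe, shown above, the ratio was -6.15 in B86 and -4.80 in B96 but 0.08 in B91 and 0.03 in B76. The tumour signals of B86 and B96 at that probe were not well above background, so their depth there is only a bound. Towards the interferon genes the order changed: B91 was at -3.44 and B96 at -0.95 at the probe at chr4:88548838, where B86 was at 0.23. B96 had a shallower segment of -0.78 over 34 probes (chr4:87607361-88548897), with Mllt3 and the interferon genes Ifnb1 and Ifna12. B91 had a segment of -1.80 over 6 probes (chr4:88483941-88526005) that took in the interferon gene Ifne. B86 alone had a segment beyond the deletion, of -1.67 over 5 probes (chr4:89359088-89892133) with Dmrta1 and Zfp352. Its Dmrta1 probe read only -0.59 in B86, against -0.28, -0.42 and -0.38 in B91, B96 and B76. The Zfp352 probes read -2.07 and -2.51 in B86. Across the shared stretch the mixed tumours had a median of -0.63, and the lowest of them was at -4.31.

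**Figure D1:**
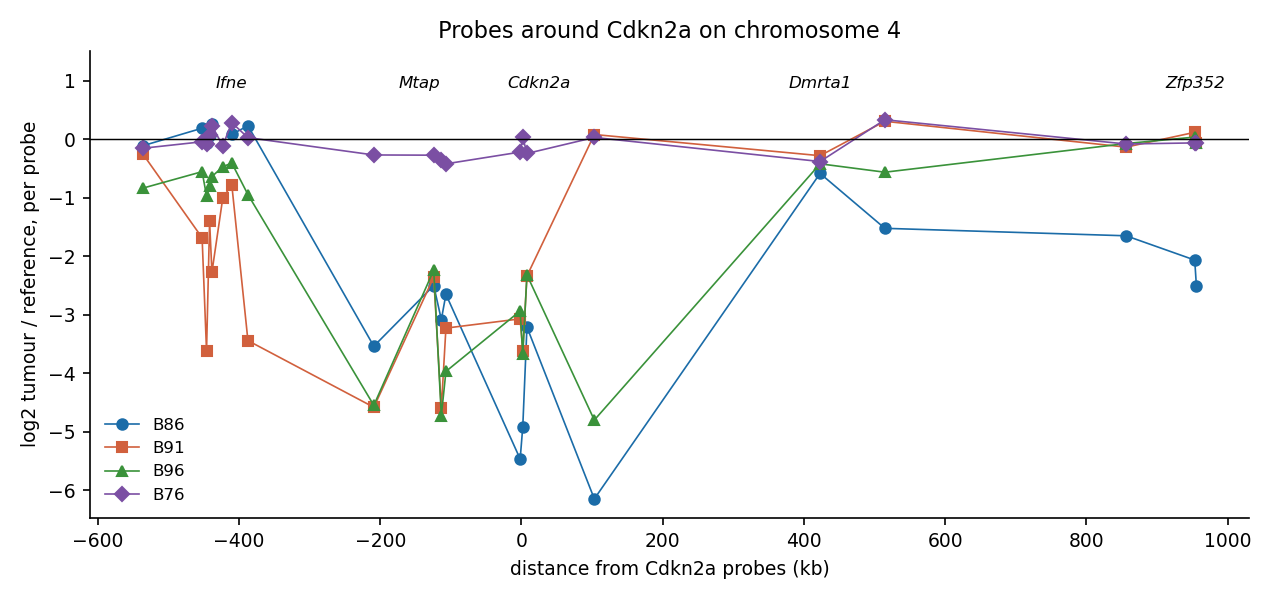
Log2 ratio of tumour over reference at each probe around Cdkn2a (y axis) against distance from the Cdkn2a probes in kb (x axis), with 1 line for each C57BL/6J tumour. B86, B91 and B96 fall below -2 over the stretch with Mtap and Cdkn2a and end at different places, while B76 stays near 0.

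B76, the tumour that kept Cdkn2a near the reference level, had the highest ratio at Myc, which encodes a transcription factor that drives growth. Myc read -0.17, 0.23 and 0.13 in B86, B91 and B96 and 4.47 in B76. The mean over the tumours did not pass (1.16 ± 2.21, SD, n = 4, limma adjusted p 0.309). The raised segment held 9 probes over 2049 kb (chr15:59769468-61818102) and averaged 4.31, a 19.9-fold higher signal. Over the same probes the other 3 tumours averaged 0.09, 0.45 and 0.25. The probe before the segment read -0.22 in B76 and the probe after it, AK043790, read 0.21, so both edges lay between neighbouring probes. The reference channel over the segment was -0.47 with the 4 arrays averaged and -0.70 on the B76 array. The tumour channel of B76 was 3.64. With 1 tumour on 1 array there is no replicate of this amplification among the C57BL/6J tumours. Of the mixed tumours, A390 (2.48) and A202 (1.71) had the highest means over these probes.

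**Figure D2:**
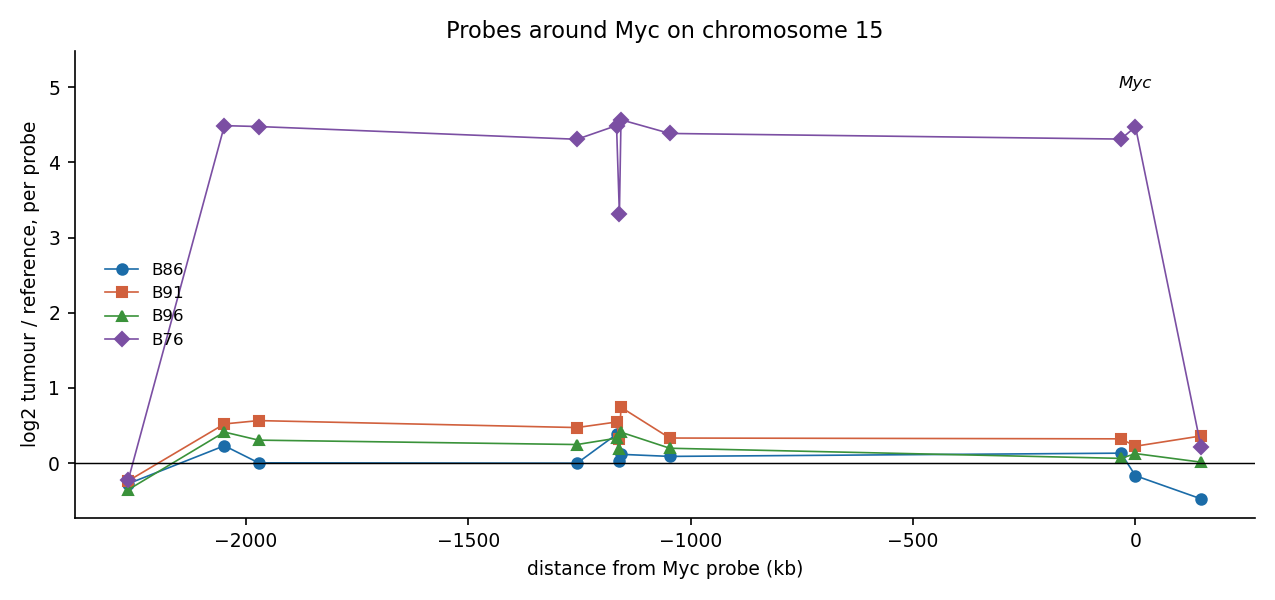
Log2 ratio of tumour over reference at each probe around Myc (y axis) against distance from the Myc probe in kb (x axis), with 1 line for each C57BL/6J tumour. B76 stands above 3 at 9 neighbouring probes and returns to near 0 at the probe on each side, and the other tumours stay below 1.

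Chromosome 15 of B76 carried further steps on a level of 0.21 to 0.24. A segment of 10 probes (chr15:32492258-33312360) stood at 1.59 and included Sema5a, a semaphorin gene, and Sdc2, a syndecan gene. Segments of 0.82 (chr15:12082567-13048055), 0.69 (chr15:31448434-32170365), 0.77 (chr15:33529250-34580177) and 0.85 (chr15:39268757-39974875) lay around it. The stretch at 0.77 included Mtdh and Laptm4b, and that at 0.82 included Drosha, which encodes the nuclease that starts microRNA processing. In the other 3 tumours the highest mean over these 5 segments was 0.44, in B91, whose own segment across this part of the chromosome averaged 0.32.

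Chromosome 8 of B76 was stepped in the same manner. On a level of 0.24 to 0.29, a segment of 14 probes (chr8:9475463-10516317) with the DNA ligase gene Lig4 and the cytokine gene Tnfsf13b stood at 1.05. Segments of 0.58 (chr8:34491404-41437036), which began at the helicase gene Wrn, and 0.65 (chr8:62997306-66474322) followed. The other 3 tumours had means of 0.00 to 0.11 over the segment with Lig4. B76 also lost the proximal part of chromosome 10, at -0.77 over 602 probes and 47.7 Mb (chr10:3051921-50789940), which includes the estrogen receptor gene Esr1. There the other 3 tumours averaged -0.13, -0.02 and -0.05.

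B91 had further steps, not all of them particular to it. On chromosome 6, 53 probes (chr6:129676112-133799918), among them those of Klra22, averaged 0.96 in B91 between segments of 0.73 and 0.39. The other 3 tumours averaged 0.43, 0.20 and 0.49 there, against 0.32, 0.08 and 0.41 over the segment before it. The median of the mixed tumours was 0.26 there against 0.13 before it, so the rise was not particular to B91. At Ezh2, which encodes the catalytic subunit of a Polycomb complex, B91 dropped to -0.24 over 5 probes (chr6:47458322-47746582) between segments of 0.65 and 0.63. B86, B96 and B76 averaged 0.07, -0.13 and 0.27 over those probes. On chromosome 10, 16 probes over 234 kb (chr10:80147371-80381260) averaged -0.73 in B91 and -0.21 in each of B86, B96 and B76. This stretch includes Dot1l, which encodes a histone methyltransferase, and Lmnb2, a lamin gene. The reference channel there was at 0.42 with the 4 arrays averaged and 0.53 on the B91 array. The tumour channel was -0.25 in B91 against 0.07, 0.36 and 0.37 in B86, B96 and B76. Of the mixed tumours, A394 was lowest at -0.59.

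Whole chromosomes differed from tumour to tumour. Chromosome 1 had a median of 0.30 in B86, 0.22 in B91 and 0.50 in B96 but -0.24 in B76, so 1 tumour lay on the other side of 0. Chromosome 6 was at 0.25 in B86, 0.67 in B91 and 0.34 in B76 and at -0.01 in B96. Chromosome 19 was at 0.27 in B86, 0.13 in B91 and 0.25 in B96 and at 0.00 in B76. B91 and B76 shared raised medians on chromosome 15 (0.25 and 0.23) and chromosome 17 (0.27 and 0.23), where B86 (0.01 and -0.09) and B96 (0.10 and -0.02) were lower. B76 alone was raised on chromosomes 3 (0.35), 8 (0.27) and 14 (0.22), with the other tumours between -0.15 and 0.01 there. Chromosomes 2, 4, 5, 7, 9, 10, 12, 13, 16 and 18 were below 0 in all 4 tumours, and none of those medians reached 0.2 in size. Their distance from 0 depended on the centring. With centring on the mode, the mean of chromosome 2 moved from -0.10 to -0.05 and that of chromosome 5 from -0.13 to -0.08. The mean of chromosome 9 changed sign.

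The chromosome medians carry no passing test. With 4 tumours, the exact two-sided sign-flip permutation test cannot give a p below 0.125, and the smallest value after Benjamini-Hochberg adjustment over 19 autosomes was 0.183. Against the mixed tumours, all 330 splits of the 11 tumours were enumerated (exact permutation test, two-sided), and no autosome passed. Its smallest p was 0.0303, for chromosome 7, with an adjusted value of 0.360. The means on chromosome 7 were -0.07 ± 0.04 (SD, n = 4) and 0.09 ± 0.12 (SD, n = 7). Chromosome 6, at 0.31 ± 0.28 against 0.07 ± 0.10 in the mixed tumours, had an exact p of 0.0515 and the same adjusted value.

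**Figure D3:**
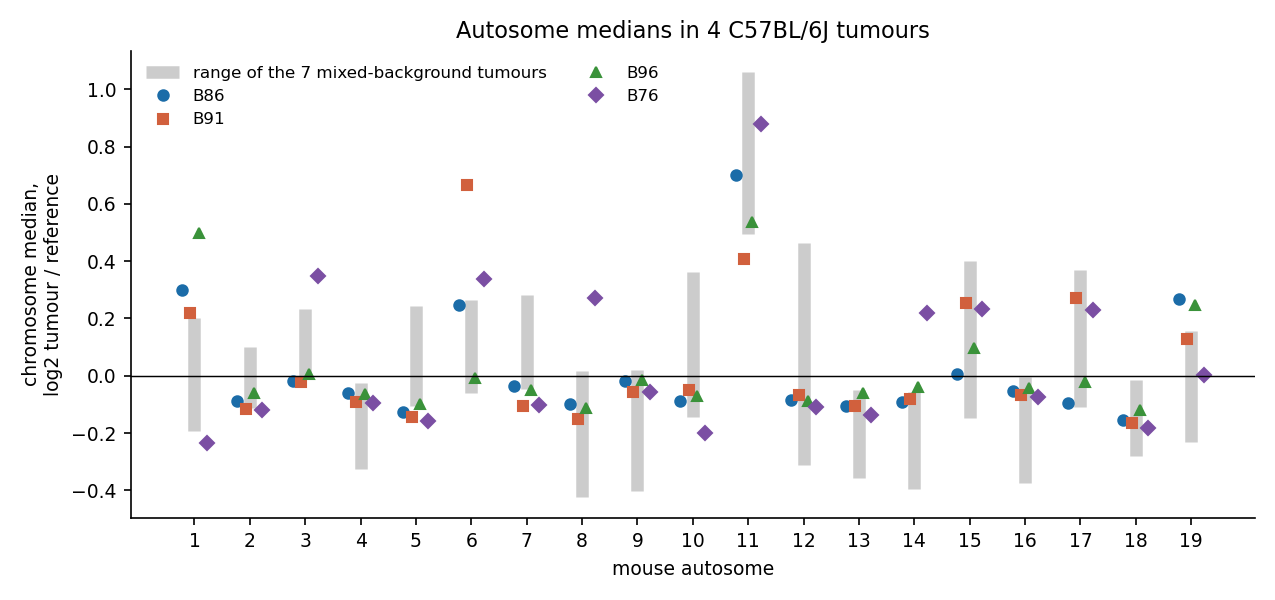
Median log2 ratio of tumour over reference (y axis) for each autosome (x axis), with 1 symbol for each C57BL/6J tumour and a grey bar for the range of the 7 mixed tumours. Chromosome 11 is the only autosome on which all 4 symbols lie above 0.4, and chromosomes 1 and 6 show the widest spread between tumours.

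Only chromosome 11 was raised along most of its length in all 4 tumours, and there the reference channel was itself low. Over 24 probes near its end (chr11:120322821-120548313) B91 averaged -0.05 and B96 0.11. The chromosome 11 median was 0.70 in B86, 0.41 in B91, 0.54 in B96 and 0.88 in B76, a mean of 0.63 ± 0.20 log2 (SD, n = 4). The mixed tumours averaged 0.72 ± 0.19 (SD, n = 7). In the reference channel, after adjustment for probe GC content, chromosome 11 was at -0.57, -0.50, -0.50 and -0.50, a mean of -0.52 ± 0.04 (SD, n = 4). All other autosomes lay between -0.09 and 0.16 in that channel. On the 8 arrays of the mixed tumours the reference channel of chromosome 11 averaged -0.53 ± 0.04 (SD, n = 8). The reference is shared by all arrays, so an SD of that channel, here and below, covers only the spread between arrays. The tumour channel on chromosome 11 was 0.11, -0.09, 0.04 and 0.34, so only B76 was above 0.2. On chromosome 6 the reference channel was at 0.00 and the tumour channel followed the ratio, with 0.24, 0.63, -0.04 and 0.30. Chromosome 1 was likewise at 0.10 in the reference channel and at 0.38, 0.29, 0.57 and -0.20 in the tumour channel. Ratios of chromosome 11 genes below carry the low reference level of that chromosome.

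**Figure D4:**
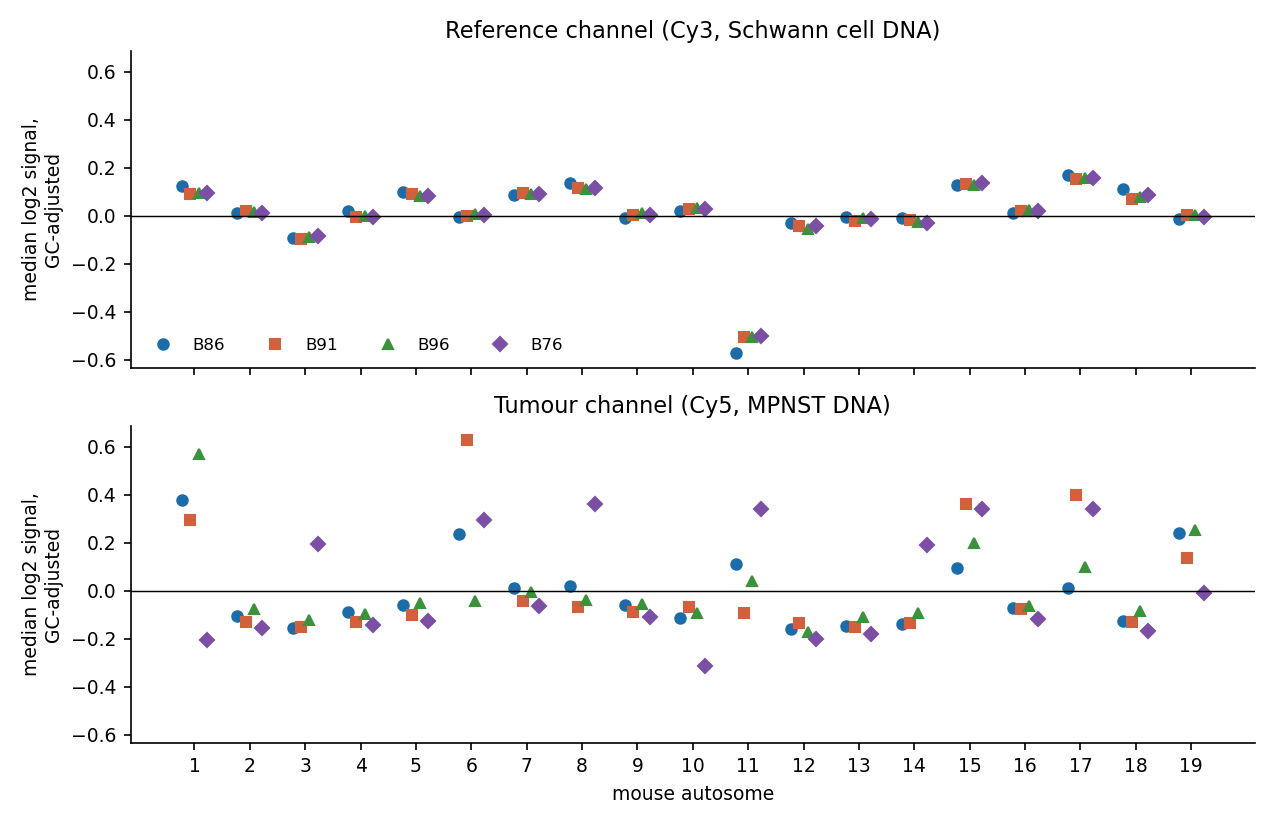
Median GC-adjusted log2 signal (y axis) of the reference channel (upper panel) and the tumour channel (lower panel) for each autosome (x axis), with 1 symbol for each C57BL/6J array. In the reference channel chromosome 11 lies at -0.57 to -0.50 on all 4 arrays, and in the tumour channel it spans -0.09 to 0.34.

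Called segments, those with a mean of at least 0.2 in size, covered 23.4% of autosomal probes in B86, 29.1% in B91, 16.9% in B96 and 40.4% in B76. The mean was 27.4% ± 9.98 (SD, n = 4), with gains at 25.1% ± 6.67 and losses at 2.38% ± 3.77. Without chromosome 11 the share was 21.7% ± 10.8, so the spread between tumours was as wide there. Of all autosomal probes, 7.21% lay in gains of all 4 tumours (2935 probes) and 0.00982% in losses of all 4 (4 probes). Outside chromosome 11 only 21 probes were in gains of all 4 tumours. Gains in at least 3 of 4 tumours outside chromosome 11 covered 15.4% of probes and were mostly chromosome 1 (2751 of its 2757 probes), chromosome 6 (2389 of 2394) and chromosome 19 (594 of 1331). The counts on chromosomes 1 and 19 rest in large part on B91 segments near the threshold of 0.2. Those segments averaged 0.22 (2023 probes) and 0.20 (455 probes) on chromosome 1 and 0.21 on chromosome 19. Losses in at least 3 tumours outside chromosome 11 came to 12 probes, 7 on chromosome 4 and 5 on chromosome 1.

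The 25 probes outside chromosome 11 that were called in all 4 tumours lay in 4 short stretches, whose channels were not alike. At Srp54a and Fam177a2 (chr12:56206091-56247507, 6 probes) the ratio was 0.81, 0.89, 0.82 and 0.85, a mean of 0.84 ± 0.03 (SD, n = 4). There the reference channel was at -0.06 ± 0.08 and the tumour channel at 0.70 ± 0.06. The Fam177a2 probe shown above read 1.44, 1.31, 1.26 and 1.30. Srp54a encodes a subunit of the signal recognition particle. The mixed tumours ran from -0.02 in A18 to 1.35 over this stretch.

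At the Skint genes, which encode immunoglobulin-like proteins of skin and thymus, the ratio was 0.91, 0.78, 0.81 and 0.66 (chr4:111745389-112130148, 9 probes). The reference channel there was at -0.82 ± 0.15 and the tumour channel was also below 0, at -0.35 ± 0.10 (SD, n = 4). Skint4, with 1 probe, rose by 1.16 ± 0.13 (limma adjusted p 0.00369). Of the mixed tumours A18 was lowest over the stretch at 0.10, and the others ran from 0.61 to 0.91.

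At Slc25a37, Synb and Entpd4 (chr14:69877295-69987015, 6 probes) the ratio was 0.79, 0.69, 0.73 and 1.39. B76 was highest, and its flanking segments on chromosome 14 stood at 0.52 and 0.51. The reference channel was at -0.60 ± 0.08 and the tumour channel at 0.06, 0.03, 0.10 and 0.70. The mixed tumours had a median of -0.09 there, from -0.36 to 0.72, so the ranges of the backgrounds overlapped. Entpd4, which encodes a nucleotide hydrolase of intracellular membranes, rose by 1.08 ± 0.31 (limma adjusted p 0.00501). Its difference from the mixed tumours did not pass (limma adjusted p 0.245).

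The single stretch lost in all 4 tumours held Itln1, which encodes a lectin of the gut, and 1 probe of Cd244a, a receptor gene of natural killer cells (chr1:173444942-173494003, 4 probes). Its ratio was -1.24, -1.19, -0.95 and -1.52. Both channels were above the array's level there, the reference at 1.97 ± 0.05 and the tumours at 0.88 ± 0.29 (SD, n = 4). Itln1 fell by 1.14 ± 0.22 (limma adjusted p 0.00400). Cd244a as a whole did not pass (-0.30, limma adjusted p 0.0711), and its other 2 probes read from -0.16 to 0.61. In the mixed tumours the stretch was at or above -0.05 in A18, A202, A390 and A382 and at -1.82, -1.36 and -0.51 in the other 3. A single channel varies from probe to probe by an SD of 0.858 to 0.915 log2 on these arrays, so its median over 4 to 9 probes is a coarse measure.

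**Figure D5:**
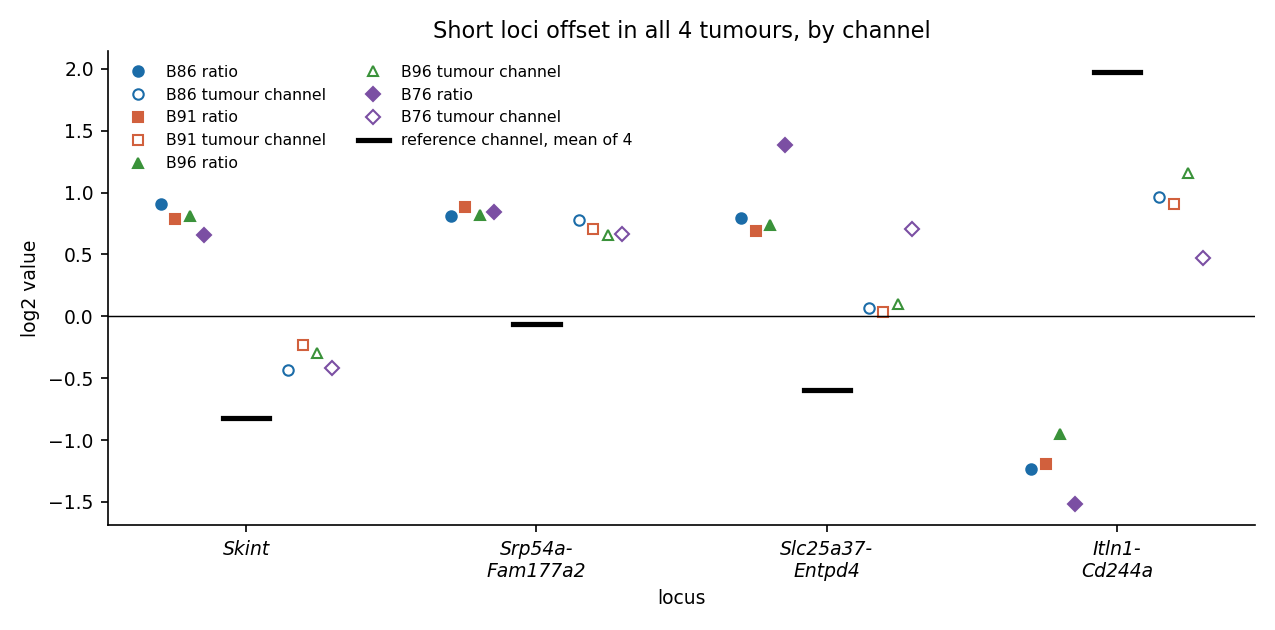
Log2 values (y axis) at 4 short loci (x axis) that were offset in all 4 C57BL/6J tumours: filled symbols are ratios, open symbols the tumour channel and black bars the mean reference channel. At Srp54a and Fam177a2 the tumour channel is high, whereas at the Skint genes both channels are below 0 and at Itln1 both are above 0.

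Single probes were read in both channels as well. Among autosomal probes, 94 (0.231%) read at least 1 in all 4 tumours and 32 (0.0786%) read at most -1. The high ones had a median of -1.52 in the reference channel and 0.03 in the tumour channel, and 33 of them were below -2 in the reference. Among them 57 lay on chromosome 11. The low ones had a median of 0.18 in the reference channel and -1.58 in the tumour channel, and 30 of the 32 lay in segments whose mean over the tumours was under 0.2 in size. Since the probes were picked by their ratio, these levels are a description. On all autosomal probes, 680 were below -2 in the reference channel and 732 in the tumour channel.

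At the level of genes, 3122 of 19984 autosomal genes rose (15.6%) and 3046 fell (15.2%), called in limma where the adjusted p was below 0.05 and the mean was 0.2 or more in size. These counts moved with the tumours and the centring: 1796 genes fell without B91 and 1457 without B96, and with centring on the mode 3795 rose and 2012 fell. Of the risers, 1398 lay on chromosome 11, where 89.8% of genes rose. Outside it 1724 genes rose (9.36%) and 3037 fell (16.5%). Chromosome 6 had 383 risers of 1150 genes, chromosome 15 had 217 of 801 and chromosome 19 had 216 of 694. Chromosome 18 had the highest share of genes that fell, 230 of 558, although its median was -0.15 ± 0.03 (SD, n = 4). Calls of lower genes rested little on called segments: outside chromosome 11 only 1.28% of the genes that fell had a segment mean of -0.2 or lower, and 5.60% lay in a loss segment of any tumour. Among all probes outside chromosome 11, 10.2% lay in a loss and 38.0% in a gain segment of at least 1 tumour. Of the risers there, 24.2% had a segment mean of at least 0.2 and 70.9% lay in a gain segment of at least 1 tumour. The lists of genes below are read against these shares, which are no firmer than the counts behind them. The slide could not be separated from the tumours: with slide as a fixed block, which leaves 1 residual degree of freedom, no gene passed in limma (7506 genes, in either direction, had an unadjusted p under 0.05).

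Of 18 measured tumour suppressor genes, 5 rose, 5 fell and 8 did not pass, with a median of -0.04 beside 0.00 over all genes. Trp53 (0.98 ± 0.28), Nf2 (0.63 ± 0.31), Nf1 (0.57 ± 0.17) and Suz12 (0.56 ± 0.21) all rose and all lie on chromosome 11. They encode p53, merlin, neurofibromin and a Polycomb subunit. Their segments averaged 0.60 to 0.62, and Nf1 read 0.60, 0.37, 0.52 and 0.78. Trp53 and Suz12 had 1 probe each, and that of Trp53 stood above its segment mean of 0.62. Nf2 lost its call without B86 (limma adjusted p 0.0594) or B96 (0.0599). Besides Cdkn2a and Mtap, the genes that fell were Rassf1 (-0.55), Smarcb1 (-0.31) and Stk11 (-0.24), in segments averaging only -0.04, -0.13 and -0.13. Rb1, the retinoblastoma gene, did not pass (0.16, limma adjusted p 0.326), with B76 at 0.59.

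Among 22 receptor tyrosine kinase and ligand genes, 4 rose, 4 fell and 14 did not pass, and the list median was -0.06. Egfr (0.70 ± 0.17) and Erbb2 (0.38 ± 0.20), receptors of the epidermal growth factor family, rose on chromosome 11. Erbb2 lost its call without B86 (limma adjusted p 0.0774) or B96 (0.0565). On chromosome 6, Met, the receptor of hepatocyte growth factor, read 0.53, 0.73, 0.21 and 0.48 and rose by 0.49 ± 0.21 (limma adjusted p 0.0127, 0.0562 without B86). The mixed tumours ran from -0.19 to 0.18 at Met, below every C57BL/6J tumour, but the difference did not pass (limma adjusted p 0.194). The share of all genes that lie apart in this way is not given here. The median of chromosome 6 as a whole averaged 0.31 in the C57BL/6J tumours and 0.07 in the mixed tumours. Tgfa, a ligand of Egfr, rose by 0.62 ± 0.35 on the same chromosome, with B91 highest at 1.08, and its call ended without B86 (limma adjusted p 0.0503). Pdgfra fell by 0.74 ± 0.08 and Hgf, the ligand of Met, by 0.70 ± 0.10, but their segments on chromosome 5 averaged -0.13. Pdgfra did not pass on smoothed probes (-0.19). Erbb3 and Erbb4, the neuregulin receptors, did not pass. Nrg1, the neuregulin gene, did not pass with its 2 probes at -0.22, -0.36, -0.22 and 0.09 (limma adjusted p 0.142), and without B76 its mean of -0.27 passed (0.0226). Erbb4 on chromosome 1 read 0.32, 0.47, 0.72 and -0.25, with B76 lowest as on the rest of that chromosome.

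Of the 24 genes measured in the Ras, MAPK and PI3K pathways, 3 rose, 7 fell and 14 did not pass, with a median of -0.05. The risers included Grb2 on chromosome 11 (0.60 ± 0.20) and Shc1 (0.35), both adaptor genes. Those that fell included Rras (-0.53), Pik3r1 (-0.45), Mapk3 (-0.36), Map2k2 (-0.31) and Hras (-0.29), each in a segment between -0.14 and -0.08. Braf on chromosome 6 did not pass at 0.23, 0.59, -0.08 and 0.32, where B96 was lowest, as on the whole chromosome.

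Of 17 cell cycle genes, 4 rose, 3 fell and 10 did not pass, with a median of 0.06. Top2a (0.65 ± 0.17) and Birc5 (0.48 ± 0.23), a topoisomerase and a mitotic survival factor, rose on chromosome 11, and Foxm1 (0.55 ± 0.34) and Mad2l1 (0.43) rose on chromosome 6. Foxm1 was highest in B91 at 0.96, and lost its call without B86 (limma adjusted p 0.0749), B91 (0.0630) or B76 (0.0537). Birc5 lost its call without B86 (0.0660) or B96 (0.0534). Max, the partner of Myc, fell by 0.45 ± 0.06 with a segment mean of -0.09. In the DNA damage list 2 of 12 rose, Brca1 on chromosome 11 (0.71 ± 0.22) and Xrcc6 on chromosome 15 (0.31 ± 0.11), and Tert, the telomerase gene, fell by 0.29 ± 0.06. Xrcc6 lost its call without B91 (limma adjusted p 0.0542) or B96 (0.0511).

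Of 15 Schwann cell lineage genes, 4 rose, 4 fell and 7 did not pass, with a median of 0.06. Among the risers, Ngfr (0.78 ± 0.19), Sox9 (0.66 ± 0.18) and Pmp22 (0.40) lie on chromosome 11. They encode the low-affinity neurotrophin receptor, a neural crest transcription factor and a peripheral myelin protein. Cadm4 (-0.46), Pou3f1 (-0.33), Gap43 (-0.27) and Foxd3 (-0.25) fell, with segments between -0.10 and -0.01, and the call of Cadm4 ended without B96 (limma adjusted p 0.0592). Of 18 genes at loci where inbred mouse strains vary in copy number, 8 rose and 3 fell, with a median of 0.19, and this list was assembled with results of these data known. The risers included Skint3, Skint4, Skint9, Srp54a and Klra22, a receptor gene of natural killer cells (1.06 ± 0.26, 4 probes). Alad, which varies between strains, did not pass (0.12, 0.01, 0.13 and 0.09). The mixed tumours averaged 0.86 there, but the difference between the backgrounds did not pass in limma.

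Among genes with at least 2 probes, taking 1 gene per chromosome and direction, the highest means after chromosome 11's AK155119 (2.62 ± 0.58) were Gm4788 (1.36), Lrit1 (1.09), Klra22, Fam177a2 and Rasip1 (1.03). At AK155119 the reference channel was -3.13 and the tumour channel -0.70 to -0.31. The lowest, besides Cdkn2a, were Itln1, Adra2c (-1.13), Fnbp1 (-1.07), Epb41l3 (-1.07) and Veph1 (-1.06). The segments around Lrit1, Rasip1, Adra2c, Fnbp1, Epb41l3 and Veph1 averaged between -0.14 and 0.12, so these values were local to their probes. Gm4788 likewise stood above its segments, which averaged 0.19, and read 0.89 in B76 within a segment of -0.24. The mixed tumours ran from -2.91 to 1.14 at Gm4788.

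Against the mixed tumours, 3 of 19984 genes differed, all lower in the C57BL/6J tumours (0.015%), and no gene was higher (0%; 2052 genes had an unadjusted p under 0.05 in limma in either direction). Tom1l1 read -0.92, -0.50, -0.77 and -0.65, with a difference of -1.21 ± 0.13 (SE, limma adjusted p 0.00168). Its 2 probes disagreed: the probe at chr11:90535960-90536019 read -2.48, -1.43, -1.91 and -2.10, and the probe at chr11:90544608-90544667 read 0.64, 0.44, 0.37 and 0.81, near the level of chromosome 11. Gapdhs, the sperm form of a glycolytic enzyme gene, had 1 probe at -1.40, -0.82, -1.24 and -1.49, with a difference of -1.23 ± 0.14 (SE, limma adjusted p 0.00303). Lmo4, which encodes a LIM-only transcription cofactor, had 1 probe at -0.37, -0.69, -0.61 and -0.30, with a difference of -0.69 ± 0.10 (SE, limma adjusted p 0.0233). At all 3 genes the ranges of the backgrounds did not overlap, but they were picked by this same difference, so that adds no support. The share of all genes without overlap is not given here. None of the 3 lay in a segment with a mean of -0.2 or lower.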

How the data were processed

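The authors' scanner files give log10 of tumour over reference signal and, per the file headers, the intensity of each channel after background subtraction, detrending and linear dye normalisation. Software and build, from the submitters' processing notes, were Agilent Feature Extraction 9.5 and mm9. The deposited series table held the same log10 ratios. Control spots (43020 spots remained) and spots marked non-uniform or as population outliers were dropped, and values converted to log2, averaged per probe and then per gene, and centred on the autosomal median. Names were updated through RefSeq for 28951 of 29337 probes with an accession. Genes were tested in limma 3.58.1 (R 4.3.3) as the mean of 4 tumours against 0, which leaves out the spread of the reference, with Benjamini-Hochberg adjustment. On simulated data for this comparison with 19897 genes, 14 of 50 shifts of 0.3 and 48 of 50 of 1 were called. Segments came from penalised least squares (penalty 40 noise variances, at least 5 probes, isolated probes limited to 3 noise SD). Channel levels were adjusted for probe GC content by lowess (fraction 0.3). A382's 2 arrays were averaged. Named genes were the 6 highest and 6 lowest means with at least 2 probes (1 per chromosome and direction), a maximum of 4 from each list, 17 genes listed by name, and genes of extreme or shared segments and of the background comparison. Other list members named, and Sema5a, Sdc2, Lig4 and other segment genes, were chosen after their values were seen. Some genes of these lists are not reported here. Members, lists and tests were chosen with earlier results of these data known. Alternatives changed the background correction, loess, centring, spot filters, smoothing, slide, spread, segmentation and each tumour.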

Additional observations from a re-analysis of the deposited data

Results flagged for a closer look

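Of 83 sets of 4 values tested (chromosome medians, named genes and other reported values), 9 had 1 tumour far from the other 3, judged by the gap to the nearest value as a share of the whole range (Dixon's ratio, past its 95% critical value). Chance gives such a value in about 1 of 20 independent sets, but these sets are not independent and that rate cannot be applied. The neighbours of Myc below were named from the highest segment of B76, which also holds Myc, so B76 stands apart there by selection. B76 was the separate tumour for the medians of chromosome 3 (0.922) and chromosome 8 (0.880), and for Myc (0.916) and its neighbours AK016789 (0.874), AK162412 (0.948) and AK046554 (0.910). B76 was also apart at Egfr (0.835), where it was highest at 0.95, and at Skint4 (0.851), where it was lowest at 0.97. At Lrit1 the separate tumour was B86 (0.860), lowest at 0.96 against 1.11 to 1.13 in the others.

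The C57BL/6J tumours differed from the mixed tumours in limma at Gapdhs (-1.23), Tom1l1 (-1.21) and Lmo4 (-0.69). Each of these rests on 1 probe that departs from its neighbours.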

How the results depend on the processing

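Counts of genes that rose were 2092 to 3513 when 1 tumour was left out, and 1724 without chromosome 11. Counts that fell were 1457 to 3275 when 1 tumour was left out (1796 without B91, 1457 without B96), 2012 with centring on the mode and 1907 on smoothed probes. With slide as a fixed block, added after seeing the data, both counts were 0. The planned random block for slide was not run, since 1 slide holds 2 of the 4 arrays and no correlation could be estimated. Genes that differed from the mixed tumours numbered 15 with normexp and 0 on smoothed probes. On smoothed probes the sign turned at Rasip1 (-0.0306), Epb41l3 (0.0860), Alyref2 (-0.0749), Gapdhs (0.0684), Tom1l1 (0.58) and Lmo4 (0.0910), by the construction of smoothing over neighbours. Medians near 0 changed sign: chromosome 3 without B76 (-0.0117 to 0.112 when 1 tumour was left out), chromosome 8 with the mode (0.0260), with centring without chromosome 11 (0.00112) or without B86, B91 or B96 (-0.121 to 0.0192), chromosome 9 with the mode (0.0130), and chromosome 14 with normexp (-0.000362) or without B76 (-0.0712 to 0.0326). So did the differences from the mixed tumours on chromosome 3 (0.00253 with normexp, 0.0307 with the mode, -0.0950 to 0.0286 when 1 tumour was left out), chromosome 4 (-0.0107 with normexp), chromosome 17 (0.00497 with the mode, -0.0893 to 0.0330 when 1 tumour was left out) and chromosome 18 (0.0185 with the mode). The called share was 60.5% at a threshold of 0.1 and 15.3% at 0.3. Without GC adjustment the reference channel on chromosome 11 was at -0.47. The causes of these changes were not tested. No paired analysis was possible because replicate numbers are only names in accession order. Signal over background limits few values here: among the probes of the regions described, 1 Tom1l1 probe (reference), the last AK148321 probe (tumour) and 1 probe of the shared Cdkn2a stretch (tumour, B96) fell short of that level on some arrays.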
